A study of Homo sapiens with 4 samples.

Results

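The DUSP genes described here encode dual-specificity phosphatases that switch MAP kinases off, and they are 8 of the 57428 genes with a sense-strand entry in the deposited tables. They were taken by symbol: DUSP1, DUSP2, DUSP4, DUSP5, DUSP6, DUSP10, DUSP14 and DUSP16. The study compared nascent RNA of U2OS cells, a human osteosarcoma line, held in hypertonic medium at 300 mM sodium or in isotonic medium at 150 mM sodium. Hypertonic medium was growth medium supplemented with concentrated phosphate-buffered saline, and isotonic medium received an equal volume of ordinary saline. All cells of both groups stably overexpressed the mRNA decapping cofactor DCP1a fused to GFP and were kept under G418 selection. RNA made during 30 min of labelling with 2 mM bromouridine, a uridine analogue, was pulled down with an antibody and sequenced with no chase (Bru-seq). There were 2 libraries per group. The labels state no exposure time and do not say that replicates were separate cultures, so the p-values rest on a spread between libraries that may be technical only. In bulk RNA, fewer cells of a type and less RNA per cell cannot be told apart.

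MAP kinases are active when both a threonine and a tyrosine of their activation loop carry a phosphate, and the DUSP proteins remove both. Several of these phosphatases are made in response to the kinase they inactivate, which closes a negative feedback loop: DUSP1, DUSP2, DUSP4 and DUSP5 are inducible nuclear enzymes, and DUSP6 is a cytoplasmic enzyme specific for ERK. DUSP10 and DUSP16 act mainly on the stress kinases JNK and p38, which osmotic stress is known to activate, and DUSP14 is a small atypical member that lacks the kinase-docking domain of the others. Because Bru-seq reads come from introns as well as exons, the values below count labelled RNA along the whole gene rather than mature mRNA alone. Exons covered 2019 of the 3106 bases of DUSP1 and 1932 of the 2275 bases of DUSP2. How far splicing or decay during the labelling affected the values was not tested.

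The libraries held 28367788 and 23048409 counts in hypertonic replicates 1 and 2, and 44888307 and 23410787 counts in isotonic replicates 1 and 2. CPM here is counts scaled by the effective size of each library. DCP1A, the overexpressed gene, stood at 314 and 199 CPM in hypertonic cells, against 283 and 630 CPM in isotonic cells, with reads of the transgene and the chromosomal gene not told apart. Of 8 mesenchymal markers, 3 reached 1 RPKM in all 4 libraries (SPARC, COL1A1 and VIM), while TWIST1 had 0 counts in each and COL1A2 at most 2. The leukocyte and endothelial markers did not exceed 0.147 RPKM in any library, and among epithelial markers KRT18 lay between 1.29 and 3.71 RPKM.

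Promoter sequences were available for 6 of the 8 genes, from RefSeq on GRCh38.p14, and 3 are shown: those of DUSP1 and DUSP2, whose genes had the same highest and second library, and that of DUSP10, whose gene had another order. Each is the 250 bases before the annotated start, in the direction of transcription, for DUSP1 (chr5:172771196-172771445, minus strand), DUSP2 (chr2:96145441-96145690, minus strand) and DUSP10 (chr1:221742090-221742339, minus strand, the outer of its 2 annotated starts and 87 bases inside the deposited one). Capitals mark the cyclic AMP response element TGACGTCA and its shorter form TGACG, the TATA box TATAAA and the CCAAT box CCAAT, each searched on both strands; a short form inside the full element is part of it.
DUSP1: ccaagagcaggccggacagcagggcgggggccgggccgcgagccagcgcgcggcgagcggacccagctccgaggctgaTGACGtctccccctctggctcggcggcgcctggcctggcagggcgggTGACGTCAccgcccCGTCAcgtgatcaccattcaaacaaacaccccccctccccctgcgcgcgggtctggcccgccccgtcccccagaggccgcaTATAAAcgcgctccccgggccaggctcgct
DUSP2: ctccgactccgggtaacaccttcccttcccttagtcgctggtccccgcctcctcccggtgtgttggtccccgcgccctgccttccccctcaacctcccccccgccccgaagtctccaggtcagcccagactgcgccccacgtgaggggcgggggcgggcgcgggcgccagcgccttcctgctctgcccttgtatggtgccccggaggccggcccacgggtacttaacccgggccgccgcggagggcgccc
DUSP10: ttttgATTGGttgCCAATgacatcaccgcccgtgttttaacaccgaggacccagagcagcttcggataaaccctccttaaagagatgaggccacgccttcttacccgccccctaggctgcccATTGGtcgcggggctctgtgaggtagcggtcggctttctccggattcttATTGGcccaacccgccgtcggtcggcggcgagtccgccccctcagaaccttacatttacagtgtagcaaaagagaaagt
The DUSP1 promoter held the full element TGACGTCA, which 1.65% of 35116 promoters of the same length held, and a TATA box, held by 10.7%. It also carried the short form on each strand outside the full element, and 21.2% of all promoters held it at least once. The DUSP2 promoter matched none of these 4 motifs and held 3 GC boxes (GGGCGG), a motif present in 42.6% of promoters. GC boxes, which are not marked, were also matched in the DUSP1 and DUSP10 promoters shown. Any link of these motifs to the order of the libraries was not tested. The DUSP10 promoter carried 4 CCAAT boxes, where 32.0% of promoters held at least 1. No CArG box, AP-1 site (TGACTCA), EGR site (GCGTGGGCG), ETS site (CCGGAAG), NF-kB site or tonicity element (TonE) was matched in the 250 bases of any of the 6 genes. Of all promoters, 1.16%, 4.2%, 0.72%, 8.52%, 6.08% and 4.16% held these motifs in the order named. A match is a description of letters, and its absence says nothing of a factor. The RefSeq start lay 770 bases inside the deposited start for DUSP6, whose 250 bases thus fall within the deposited gene. For DUSP16 it lay 480 bases outside the deposited start.

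Per length of the whole gene, DUSP1 had the highest value of these genes in every library, and DUSP4 and DUSP6 were close to silent. Exons covered 2019 of the 3106 bases of DUSP1 but 5724 of the 88174 bases of DUSP16. How the share of exons affects this ranking was not tested. In deposited RPKM (reads per length and library constant), DUSP1 measured 14.7 and 6.34 in the hypertonic libraries and 14.2 and 69.95 in the isotonic libraries, and 99.9% of protein-coding genes had a lower mean. DUSP2 ranged over the 4 libraries from 1.29 to 9.24 RPKM, DUSP16 from 1.75 to 2.62, DUSP5 from 0.321 to 4.02, DUSP14 from 0.830 to 1.54 and DUSP10 from 0.488 to 1.69. Ranges of neighbours in this order overlapped throughout, apart from the step between DUSP10 and DUSP6, which did not exceed 0.0598 RPKM. DUSP6 (ENSG00000139318, chromosome 12, 89347232 to 89353271) had 11 and 4 counts in the hypertonic and 18 and 1 counts in the isotonic libraries. DUSP4 (ENSG00000120875, chromosome 8, 29333064 to 29350668) had 1 and 4 counts in the hypertonic and 5 and 0 counts in the isotonic libraries, where a count of 0 allows up to 3. DUSP4 did not pass the expression filter, and the other 7 genes did.

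**Figure D1:**
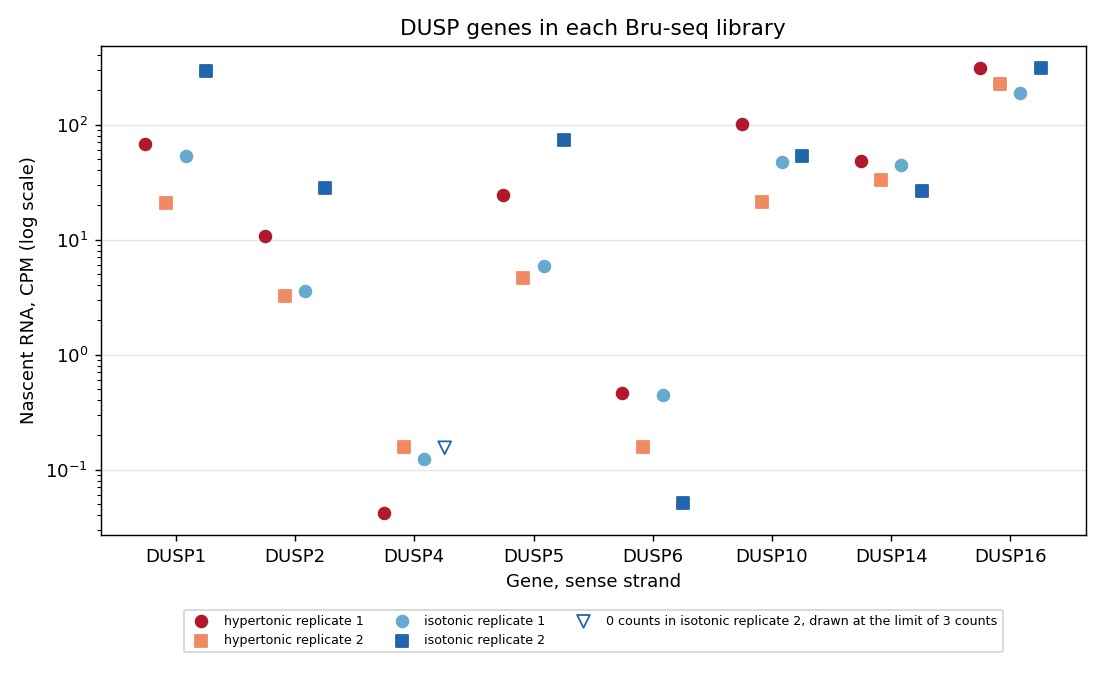
Nascent RNA of the 8 DUSP genes in CPM (log axis), 1 point per library, hypertonic libraries left of isotonic ones for each gene. DUSP1, DUSP2 and DUSP5 are highest in isotonic replicate 2, at 291, 28.1 and 73.7 CPM, DUSP16 is between 188 and 309 CPM in all libraries, and DUSP4 and DUSP6 stay below 1 CPM.

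None of the 7 tested DUSP genes passed the test for a difference between hypertonic and isotonic cells (edgeR, Benjamini-Hochberg adjusted p over 21238 genes at a threshold of 0.05). Of all tested genes 0% passed that threshold. At an unadjusted p under 0.05, 1 DUSP gene was lower, DUSP1, next to 2.01% of all tested genes, and 0 were higher, next to 8.89%. DESeq2 and limma-voom called 0 of the 7, with DESeq2 calling 3.32% of all genes higher and 0.118% lower. Likewise 0 of the 7 were called with a replicate block (1.79% of genes higher, 0.0188% lower) and without isotonic replicate 2 (0.0165% higher). Without isotonic replicate 1 DUSP6 did not pass the filter, and 0 of the other 6 were called (0.017% higher, 0.0085% lower). The 2 groups overlapped in all 7, whereas the hypertonic pair lay wholly below the isotonic pair in 17.5% of tested genes and wholly above it in 22.5%. The median log2 fold change of the 7 was 0.09, next to 0.04 over all tested genes, with 4 positive and 3 negative.

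Among the inducible nuclear phosphatases, DUSP1 (ENSG00000120129, chromosome 5, 172768090 to 172771195) measured 67.1 and 20.9 CPM in hypertonic cells, against 53.8 and 291 CPM in isotonic cells. The isotonic replicates thus enclosed hypertonic replicate 1, and the high value belonged to isotonic replicate 2. Its log2 fold change was -1.97 ± 0.79 (SE, n = 2 per group; edgeR, adjusted p = 0.409). With isotonic replicate 2 left out it shrank to -0.33. With no expression filter DUSP1 passed the edgeR test as lower, at -2.04 (adjusted p = 0.00346), next to 0.126% of genes called lower and 2.33% called higher in that fit.

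DUSP2 (ENSG00000158050, chromosome 2, 96143166 to 96145440), which acts on ERK and p38 in the nucleus, measured 10.7 and 3.22 CPM in hypertonic cells, against 3.61 and 28.1 CPM in isotonic cells. DUSP5 (ENSG00000138166, chromosome 10, 110497838 to 110511544), which acts on ERK in the nucleus, measured 24.2 and 4.68 CPM in hypertonic cells, against 5.84 and 73.7 CPM in isotonic cells. In both genes isotonic replicate 2 was highest and hypertonic replicate 1 next, while the other 2 libraries were low and close to each other. The log2 fold change was -1.19 ± 0.95 for DUSP2 and -1.46 ± 1.07 for DUSP5 (SE, n = 2 per group; edgeR, adjusted p = 0.796 and 0.749). Both were positive without isotonic replicate 2, at 0.91 for DUSP2 and 1.27 for DUSP5, and did not pass the test there either.

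DUSP10 and DUSP16, which act mainly on JNK and p38, split: DUSP10 varied between the hypertonic replicates and DUSP16 varied little. DUSP10 (ENSG00000143507, chromosome 1, 221701424 to 221742176) measured 101 and 21.1 CPM in hypertonic cells, against 46.9 and 53.3 CPM in isotonic cells. The hypertonic replicates lay on either side of both isotonic ones, and the log2 fold change was 0.29 ± 0.65 (SE, n = 2 per group; edgeR, adjusted p = 0.983). Its sign turned on which hypertonic library was used: 1.01 without hypertonic replicate 2, where the edgeR call was made (adjusted p = 0.0296, next to 11.1% of genes called higher and 10.3% lower in that fit), and -1.28 without hypertonic replicate 1 (adjusted p = 0.104). It was also negative, without passing, under limma-voom (-0.12) and the replicate block (-0.11). DUSP16 (ENSG00000111266, chromosome 12, 12474210 to 12562383) measured 308 and 223 CPM in hypertonic cells, against 188 and 309 CPM in isotonic cells. At 0.09 ± 0.43, its log2 fold change was smaller than its standard error (edgeR, adjusted p = 0.995), and it changed sign without hypertonic replicate 1 (-0.19) and without isotonic replicate 1 (-0.25).

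DUSP14 (ENSG00000276023, chromosome 17, 37489831 to 37513501), the atypical member, measured 48.0 and 33.0 CPM in hypertonic cells, against 44.6 and 26.3 CPM in isotonic cells. In both groups replicate 1 was the higher one, and the log2 fold change was 0.19 ± 0.49 (SE, n = 2 per group; edgeR, adjusted p = 0.989). Its sign too depended on single libraries, at -0.14 without hypertonic replicate 1 and -0.18 without isotonic replicate 2. Unlike DUSP1, DUSP2 and DUSP5, it was lowest in isotonic replicate 2. DUSP6, at the counts given earlier, had a log2 fold change of 0.21 ± 1.04 (adjusted p = 0.995), with too few counts to show a difference of moderate size. Scaling changed no direction among the 7: under RLE, total-count and upper-quartile scaling the log2 fold change of DUSP1 lay between -1.96 and -1.76 and that of DUSP16 between 0.07 and 0.30. Total-count scaling moved the median of all tested genes by 0.22 and upper-quartile scaling by 0.19.

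**Figure D2:**
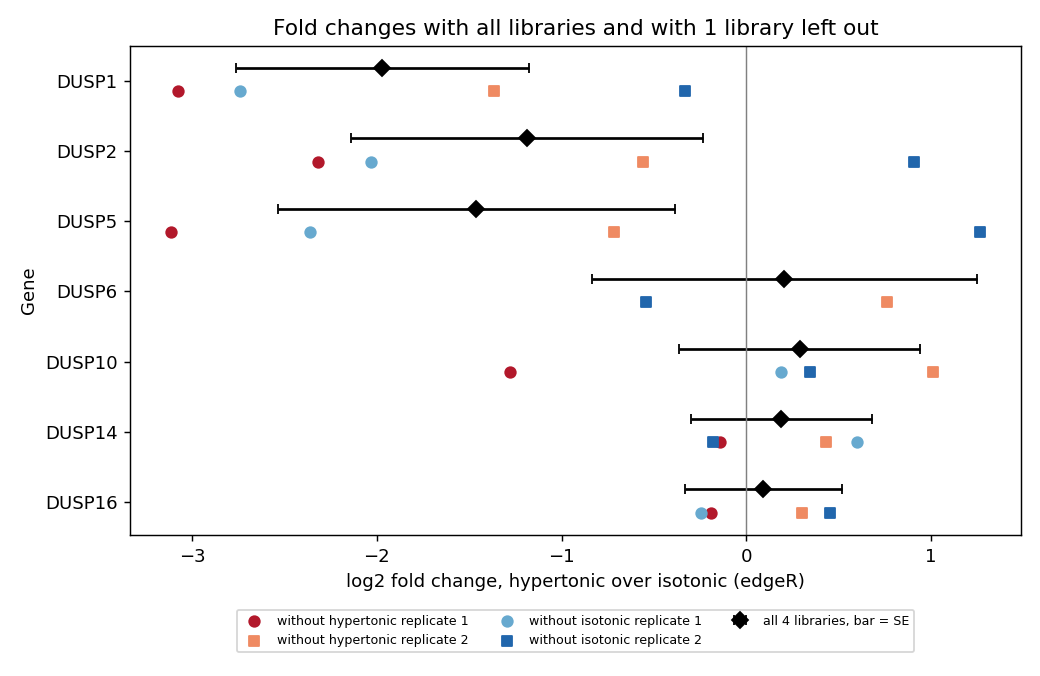
Log2 fold change of the 7 tested DUSP genes, hypertonic over isotonic, from edgeR. Black diamonds use all 4 libraries with bars of 1 SE, and coloured points leave out the library named in the legend; among these points DUSP2 and DUSP5 are above 0 only without isotonic replicate 2, and DUSP10 is below 0 only without hypertonic replicate 1. DUSP6 has 2 such points because it did not pass the filter without the other libraries.

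Replicates of the same group differed several-fold for DUSP1, DUSP2 and DUSP5. Hypertonic replicate 1 stood 3.21-fold above hypertonic replicate 2 for DUSP1, 3.32-fold for DUSP2 and 5.18-fold for DUSP5, and gaps of at least that size, in either direction, occurred in 19.3%, 18.5% and 6.97% of tested genes. Isotonic replicate 2 stood 5.41-fold above isotonic replicate 1 for DUSP1, 7.80-fold for DUSP2 and 12.6-fold for DUSP5. An isotonic gap at least as large in log2 CPM, in either direction, was found in 0.838%, 0.348% and 0.122% of tested genes for the same 3 in turn, and these 3 of the 7 were at least 4 times higher in isotonic replicate 2, next to 2.47% of all tested genes. With DUSP10, at 4.80-fold, 4 of the 7 were at least 3 times higher in hypertonic replicate 1 than in replicate 2, next to 8.64% of all tested genes. Both cutoffs, in the direction these genes showed, were not among the planned comparisons and lie below the smallest of their gaps. The shares are therefore descriptions without a test. DUSP16 differed 1.38-fold between the hypertonic and 1.64-fold between the isotonic libraries. DUSP6 ran the other way in the isotonic pair, with 1 count in replicate 2 and 18 in replicate 1.

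This order of libraries, isotonic replicate 2 highest and hypertonic replicate 1 next, was held by 4 of the 7 tested genes, DUSP1, DUSP2, DUSP5 and DUSP16, next to 4.1% of all tested genes; it was noticed in these values and has no test. DUSP16 held it by a near tie, with 308 CPM in hypertonic replicate 1 and 309 CPM in isotonic replicate 2, and did not hold it in RPKM, where hypertonic replicate 2 was second. Of 12 inducible transcription factor genes read beside them, 10 had the same order, and 11 were at least 4 times higher in isotonic replicate 2 than in isotonic replicate 1. EGR1, a zinc finger factor induced through ERK, measured 166 and 55.6 CPM in hypertonic cells, against 57.3 and 747 CPM in isotonic cells. FOS, a subunit of the AP-1 factor, measured 148 and 9.90 CPM in hypertonic cells, against 16.8 and 324 CPM in isotonic cells. NR4A1, an orphan nuclear receptor, measured 45.7 and 24.3 CPM in hypertonic cells, against 10.9 and 504 CPM in isotonic cells, and FOSL1, an AP-1 subunit, 16.4 and 28.3 CPM in hypertonic against 18.7 and 130 CPM in isotonic cells. The 12 had a median log2 fold change of -1.35, with 11 negative, and a median difference of isotonic replicate 2 from replicate 1 of 3.33 in log2 CPM. Without isotonic replicate 2 that median fold change was 0.85. What differed between the isotonic cultures or libraries was not tested.

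**Figure D3:**
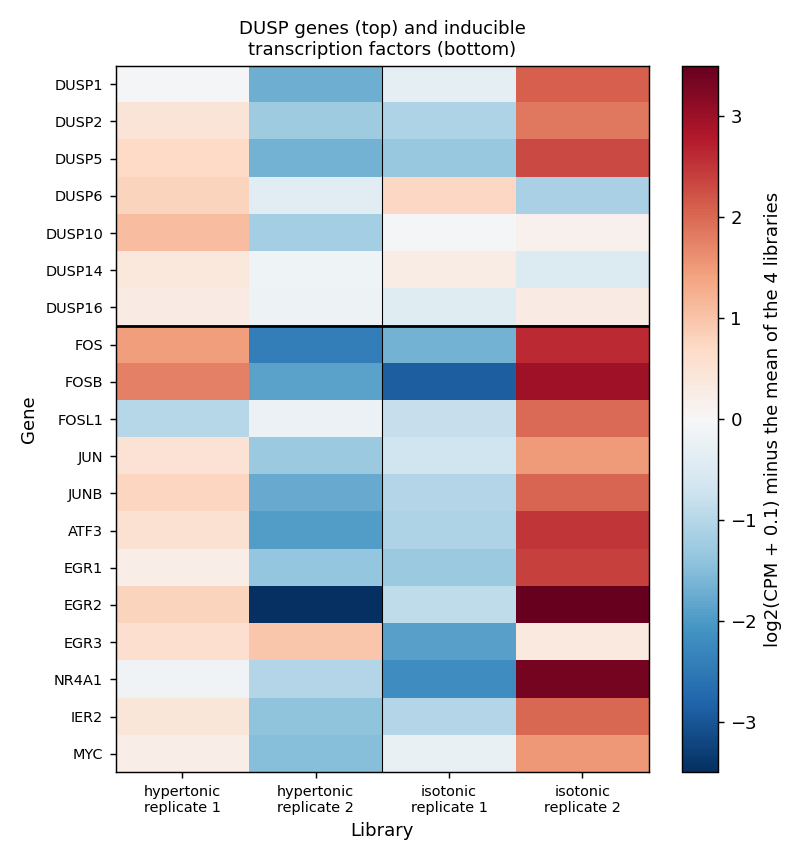
The 7 tested DUSP genes (above the black line) and 12 inducible transcription factor genes (below it) in each library, as log2(CPM + 0.1) minus the mean of the 4 libraries, red above and blue below that mean. DUSP1, DUSP2 and DUSP5 are red in isotonic replicate 2 and blue in hypertonic replicate 2 like most of the factors, while DUSP14 and DUSP16 are pale throughout.

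The genes nearest in pattern were found as the protein-coding genes of at least 5 CPM with the smallest Euclidean distance in centred log2 CPM, over 4 libraries and 10621 candidates, which is a description with few points. For DUSP1 they were FEM1C, ELL2 and MYC at distances of 0.459, 0.600 and 0.656. For DUSP2 they were MAFF, IER2 and THBS1 at 0.206, 0.244 and 0.275, and for DUSP5 they were JUNB, THBS1 and ATF3 at 0.422, 0.479 and 0.489. For DUSP10 they were CTH, TMBIM6 and SRSF3 at 0.114, 0.173 and 0.203. For DUSP6 they were PCDH18, KLHL24 and RNF43 at 0.302, 0.462 and 0.494, a match that rests on few counts of DUSP6. THBS1, which encodes the matrix protein thrombospondin, was near both DUSP2 and DUSP5 and measured 191 and 50.5 CPM in hypertonic cells, against 64.8 and 566 CPM in isotonic cells. The log2 CPM of DUSP14 and DUSP16 had SDs of 0.40 and 0.35, below the 0.5 required for this search.

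The other genes of the pathway did not pass the edgeR test over all genes either. At an unadjusted p under 0.05, 1 further phosphatase, 1 ERK-dependent gene and 1 MAP kinase were higher and 1 inducible factor was lower, next to 8.89% higher and 2.01% lower among all tested genes. DESeq2 called 1 ERK-dependent gene and 1 MAP kinase higher, next to 3.32% of all genes. The lists are not independent: SPRY2, SPRY4, SPRED1 and SPRED2 are both feedback inhibitors and ERK-dependent genes, and FOSL1 is both an ERK-dependent gene and an inducible factor. Of 20 further MAP kinase phosphatases and dual-specificity phosphatases 15 were tested, with 8 positive and 7 negative and a median log2 fold change of 0.02. DUSP19 measured 3.59 and 7.03 CPM in hypertonic cells, against 1.47 and 1.55 CPM in isotonic cells, and its log2 fold change of 1.81 ± 0.72 had an adjusted p of 0.402. DUSP12 measured 2.20 and 10.3 CPM in hypertonic against 25.9 and 14.6 CPM in isotonic cells (-1.70 ± 0.78). STYXL1, which encodes a phosphatase-like protein without activity, measured 30.0 and 34.1 CPM in hypertonic against 13.8 and 18.6 CPM in isotonic cells. The hypertonic pair lay wholly below the isotonic pair in 3 of the 15 (17.5% of all tested genes) and wholly above it in 4 (22.5% of all tested genes), shares near those of all genes. None of the 15 had isotonic replicate 2 highest and hypertonic replicate 1 next.

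Feedback inhibitors of ERK signalling other than DUSPs, such as Sprouty and Spred proteins, had 11 of 14 tested, 3 positive and 8 negative, with a median of -0.16. SPRY2 measured 2.11 and 2.83 CPM in hypertonic cells, against 2.80 and 12.1 CPM in isotonic cells. SPRED3 measured 11.4 and 20.6 CPM in hypertonic against 5.22 and 10.6 CPM in isotonic cells, with no overlap. IL17RD, which binds FGF receptors, measured 10.3 and 10.5 CPM in hypertonic against 6.11 and 7.12 CPM in isotonic cells. SPRY1 and SPRY3 had 0 CPM in every library, and whether reads of either gene could be placed was not tested. Of 12 genes known to depend on ERK activity 11 were tested, with 5 positive and 6 negative and a median of -0.09. PHLDA1, one of them, measured 70.3 and 30.6 CPM in hypertonic cells, against 5.59 and 8.77 CPM in isotonic cells, with groups that did not overlap. Its log2 fold change of 2.82 ± 0.60 had an adjusted p of 0.192 in edgeR and 0.00068 in DESeq2, which called PHLDA1 alone in this list. DUSP6, which belongs to the same published signature, had at most 18 counts in any library, too few to compare its pattern with that of PHLDA1.

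Of the 10 MAP kinases, the substrates of the phosphatases, all were tested, 5 positive and 5 negative, with a median of 0.09. MAPK8, which encodes a JNK, measured 389 and 264 CPM in hypertonic cells, against 488 and 488 CPM in isotonic cells (-0.58 ± 0.41, adjusted p = 0.726). MAPK13, a p38 kinase gene, measured 17.5 and 1.93 CPM in hypertonic cells, against 1.01 and 0.413 CPM in isotonic cells, and its log2 fold change of 3.73 ± 1.09 had an adjusted p of 0.265 in edgeR and 0.0029 in DESeq2. MAPK13 begins 19085 bases past the end of MAPK14 on the same strand, and its RPKM was 80.6% and 8.68% of that of MAPK14 in the hypertonic libraries and 3.89% and 1.71% in the isotonic ones; how much of it came from MAPK14 was not tested. MAPK11 measured 1.44 and 4.24 CPM in hypertonic cells, against 0.490 and 1.86 CPM in isotonic cells.

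The MAP kinase kinases and their activators, all 19 tested, had 2 positive and 17 negative members and a median of -0.29, next to 0.04 over all tested genes and -0.05 over protein-coding ones. Under total-count scaling it was -0.13, next to 0.26 over all tested genes and 0.17 over protein-coding ones. The hypertonic pair lay wholly below the isotonic pair in 8 of the 19 (17.5% of all tested genes) and wholly above it in 0 (22.5% of all tested genes). MAP3K7 acts upstream of JNK and p38. It measured 109 and 73.2 CPM in hypertonic cells, against 134 and 185 CPM in isotonic cells (-0.81 ± 0.41, edgeR, adjusted p = 0.546). MAP2K3 measured 34.6 and 47.5 CPM in hypertonic against 33.8 and 110 CPM in isotonic cells (-0.80 ± 0.57), and its groups overlapped. ARAF measured 2.83 and 10.8 CPM in hypertonic against 11.8 and 14.8 CPM in isotonic cells (-0.96 ± 0.72). Both values depended on single libraries. MAP2K3 ran from -1.45 (isotonic replicate 1 dropped) to 0.24 (isotonic replicate 2 dropped). ARAF ran from -2.23 (hypertonic replicate 2 dropped) to -0.33 (hypertonic replicate 1 dropped). The 13 growth factors and receptors had 8 positive and 5 negative members and a median of 0.16. FGF2, a fibroblast growth factor, measured 120 and 95.9 CPM in hypertonic against 154 and 183 CPM in isotonic cells. EREG, a ligand of the EGF receptor, measured 5.45 and 4.99 CPM in hypertonic against 1.86 and 2.94 CPM in isotonic cells. HBEGF, another ligand of that receptor, measured 109 and 20.8 CPM in hypertonic cells, against 22.8 and 42.6 CPM in isotonic cells.

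Entries past the ends of DUSP1, DUSP2, DUSP14 and DUSP16, in the direction of their transcription, were read for RNA beyond the gene. They were looked for within 10 kb of each gene end, after these values were first seen. Past the end of DUSP1, AC022217.1 lay on the same strand and did not pass the expression filter. It had 1 and 21 counts in the hypertonic and 0 and 0 counts in the isotonic libraries. The antisense entry of AC022217.2, also there, measured 0.802 and 3.62 CPM in hypertonic cells, against 0.172 and 0.0516 CPM in isotonic cells. ASTL, which encodes an oocyte protease, begins 4730 bases past the end of DUSP2 on the same strand and measured 24.7 and 4.95 CPM in hypertonic cells, against 0.662 and 7.07 CPM in isotonic cells. The groups overlapped, and the log2 fold change was 1.95 ± 1.10 (edgeR, adjusted p = 0.600). Per length, however, ASTL stood at 36.0% and 23.9% of DUSP2 in the hypertonic libraries and at 2.87% and 3.92% in the isotonic ones, which did not overlap. The same held for 61.1% of 1430 same-strand neighbours past expressed protein-coding genes.

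DUSP14 and DUSP16 each face a convergent gene, and any RNA running past their ends as far as that gene would be counted in its antisense entry. The antisense entry of SYNRG, whose end lies 1296 bases from that of DUSP14, measured 12.3 and 5.78 CPM in hypertonic cells, against 1.23 and 0.361 CPM in isotonic cells. It rose by a log2 fold change of 3.46 ± 0.86 (edgeR over 9827 antisense entries, adjusted p = 0.0140). The antisense entry of BORCS5, whose end lies 4516 bases from that of DUSP16, measured 17.2 and 8.61 CPM in hypertonic cells, against 1.37 and 2.68 CPM in isotonic cells. It rose by 2.68 ± 0.79 (adjusted p = 0.0278). In that fit 19.4% of antisense entries were called higher and 0.0102% lower, and among entries facing the end of an expressed gene 73.4% had both hypertonic libraries above both isotonic ones. Both calls were lost without isotonic replicate 1, where the log2 fold change was 4.62 for SYNRG (adjusted p = 0.256) and 2.26 for BORCS5 (adjusted p = 0.563). They were also lost without isotonic replicate 2, at 2.88 for SYNRG (adjusted p = 0.373) and 3.23 for BORCS5 (adjusted p = 0.344). These entries span the whole facing gene, and the origin of their reads was not tested. DUSP14 and DUSP16 themselves, at log2 fold changes of 0.19 and 0.09, did not pass the test.

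**Figure D4:**
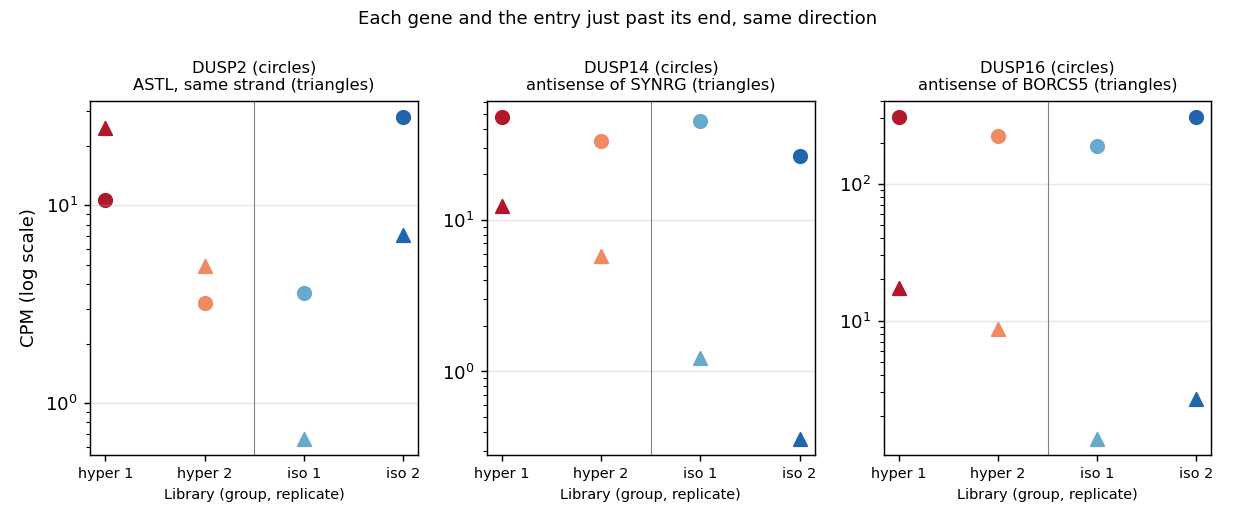
DUSP2, DUSP14 and DUSP16 (circles) and the entry past the end of each in the same direction (triangles), in CPM on a log axis, for the 2 hypertonic libraries (left of the line) and the 2 isotonic libraries (right). The antisense entries of SYNRG and BORCS5 are at 5.78 CPM or more in the hypertonic and at 2.68 CPM or less in the isotonic libraries, while DUSP2, DUSP14 and DUSP16 overlap between groups.

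The strand opposite the DUSP genes was read as well, except for DUSP1, which has no antisense entry. AC022217.3, which overlaps DUSP1 on the opposite strand, measured 1.56 and 1.89 CPM in hypertonic cells, against 0.589 and 1.81 CPM in isotonic cells. Antisense to DUSP4 had at most 6 counts in any library, and antisense to DUSP10 at most 2. Over all genes used, antisense entries held 8.60% and 6.03% of the counts of both strands in the hypertonic libraries and 3.17% and 3.36% in the isotonic libraries. Antisense to DUSP14 stood 13.0 and 4.91 CPM in hypertonic cells, against 2.08 and 3.30 CPM in isotonic cells (1.73 ± 0.77, adjusted p = 0.115), next to 62.9% of antisense entries with the hypertonic libraries above in this way. Antisense to DUSP5 stood 8.40 and 9.98 CPM in hypertonic cells, against 4.41 and 6.19 CPM in isotonic cells (0.80 ± 0.71, adjusted p = 0.425). It did not follow the sense strand: in hypertonic replicate 2 it held 68.1% of the counts of both strands at DUSP5, and in isotonic replicate 2, where DUSP5 was highest, 7.75%. Antisense to DUSP16 stood between 13.0 and 37.4 CPM, with 0.27 ± 0.76 (adjusted p = 0.817), and DUSP2 and DUSP6 had 0 antisense counts in every library, which allows up to 3 each.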

How the data were processed

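Bru-seq libraries of 2 hypertonic and 2 isotonic U2OS samples were analysed from 1 deposited table each, grouped by the sample titles. The authors deposited an expected count per gene and strand and an RPKM value (count per length and per 1 constant per library); the tables carry no header, so the units were inferred from the numbers themselves. Counts are of reads, so floors cover counting error only. Per the submitters' processing notes, STAR 2.5.3a, Bowtie2 2.3.3, bedtools 2.16.2 and CASAVA 1.8.2 were used on GRCh38 (hg38); their roles are not given in the sources used here. Per the labels' protocols, strand-specific cDNA synthesis applied to certain samples, which are not marked in the sources used here; antisense entries held 3.17% to 8.60% of counts. Gene positions follow the deposited tables and are 1-based. Strand and gene type came from GENCODE release 29; entries without a match or pooled over shared bases (3.32 to 3.64% of counts) were left out.

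Expected counts were rounded and sense counts tested with edgeR 4.0.16 (R 4.3.3): TMM, default filter, quasi-likelihood test, Benjamini-Hochberg adjustment over all genes. TMM factors were 0.947, 1.22, 0.974 and 0.887 in the order of the libraries above. CPM uses the effective library sizes, and log2 CPM a prior count of 2. Antisense entries were fitted separately with the same sizes, a choice made after seeing the values. DESeq2 1.42.0, limma 3.58.1, other scalings, no filter, a replicate block and leaving out each library were alternatives. The edgeR procedure was tested on simulated data. The genes named are the 8 DUSP genes, DCP1A, markers of cell type, the 3 tested genes with the smallest p of each pathway list, the nearest genes in pattern, and genes chosen after their values were seen (FOS, MAPK14, the neighbours, SPRY1, SPRY3 and genes shared by lists). The members and lists were chosen with earlier results of these data known. Exact permutation of 2 against 2 libraries cannot give a p below 0.333 and was not used.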

Additional observations from a re-analysis of the deposited data

How the results depend on the processing

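Of the 7 tested DUSP genes, 0 were called with all libraries in edgeR, and likewise under RLE, total-count and upper-quartile scaling, with DESeq2, limma-voom and the replicate block, and without isotonic replicate 2. Without hypertonic replicate 1 or isotonic replicate 1, DUSP6 did not pass the filter and 0 of the other 6 were called. Without a filter 1 of 8 was called (DUSP1, lower). Leaving out 1 library gave 0 to 1 calls, the 1 being DUSP10, higher without hypertonic replicate 2. Over all genes, 0 calls became 916 without a filter (869 higher), 731 with DESeq2 (706 higher) and 384 with the replicate block (380 higher), and 0 to 4918 when 1 library was left out, the most without hypertonic replicate 2. The cause was not tested. The labels link same-numbered replicates by number only. The correlation over genes of replicate 1 minus replicate 2, hypertonic with isotonic, was 0.02, which cannot show whether they were handled together. Leaving out 1 library moved the log2 fold change between -3.08 and -0.33 for DUSP1, -2.32 and 0.91 for DUSP2, -3.12 and 1.27 for DUSP5, and -1.28 and 1.01 for DUSP10. A group left with 1 library is assumed to vary like the other. Adjusted p over the alternatives ran from 0.00346 to 1.00 for DUSP1 and from 0.0296 to 1.00 for DUSP10. For the antisense entries of SYNRG and BORCS5, alternatives added after seeing the data, 5 of 7 kept the call for each. Antisense to DUSP14 was called in edgeR under total-count scaling (1.89, adjusted p = 0.0450), where the share of all antisense entries called was not counted. In the main antisense fit, which did not call it, 19.4% of entries were called higher. Without hypertonic replicate 2 the log2 fold change of antisense to DUSP14 was 2.28. With DUSP4 at 0 to 5 and DUSP6 at 1 to 18 counts, depth limits what can be said of either.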
